A study of Mus musculus with 7 samples.

Results

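Estrogen receptor beta (ERβ, Esr2) is a nuclear receptor of granulosa cells that binds DNA as a dimer, classically at the estrogen response element (ERE), a pair of inverted half-sites. GATA factors are zinc-finger proteins that read the letters GATA, and GATA4 and GATA6 are known for their role in granulosa cells, where they act on genes of steroid and inhibin synthesis together with cofactors of the FOG family. The sites described here are 327 of 4253 ERβ-bound regions of mouse ovary (7.69%) that held a GATA match and no ERE. They were selected on measured values. A site was a local maximum of ChIP signal, averaged over 200 bp and reaching at least 2, that exceeded the average of both inputs 4-fold (inputs raised to their genome mean where lower) and also stood 4-fold above its own 10-kb surroundings. Maxima within 200 bp were merged, and the site had to be called in at least 2 of 3 ChIP replicates. Sites were then kept where the best match to the ERE (GGTCA, 3 bases of any kind, TGACC) in the 200 bp differed in 3 or more of its 10 fixed bases, and where the GATA consensus BNWGATAA (B is any base but A, W is A or T, N is any base) matched exactly on either strand. Of the other sites, 982 had neither element, 598 had both, and 2346 had an ERE without a GATA match.

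The data were ChIP-seq tracks of ovaries from female C57BL/6J mice that endogenously express ERβ: 3 ERB ChIP replicates, pulled down with the monoclonal antibody PPZ0506, and 2 inputs, which are sheared chromatin sequenced without that step. According to the methods of the study, each ChIP replicate pooled ovaries of several young to adult mice, not collected at a given stage of the estrous cycle. The tissue was whole ovary, so a site cannot be assigned to a cell type, and no cell type marker was measured. The 2 ERB knockout ChIP samples were not analysed here, so signal without ERβ is not part of any comparison. Signal is the deposited coverage, which has nearly the same total in each library. The genome mean lay between 0.36 and 0.37 in the 5 libraries, depth cannot be read from averaged tracks, and replicates alone set the precision. The calls gave 3663, 5035 and 4916 sites in ChIP replicates 1, 2 and 3.

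The GATA matches of sites that are described below are shown first, on the strand of the match and with 10 bases on each side, with the 8 matched bases in capitals (RefSeq sequence of GRCm38.p6). They belong to the members near Nr5a2, Esr2, Inha, Fdxr, Igf1 and Fshr, genes of ovarian function, and to those near Zfpm1 and Zfpm2, whose proteins are the FOG cofactors of GATA factors.
Nr5a2, chr1:137177374-137177401, plus strand: tagagcggtcTGAGATAAggaagggtcc
Esr2, chr12:76184451-76184478, minus strand: ccgggctcttCCTGATAAggggcacggg
Inha, chr1:75507014-75507041, plus strand: ggcgggagtgGGAGATAAggctcagggc
Fdxr, chr11:115273040-115273067, minus strand: gaaggccaggGGAGATAAgcagaaaccc
Igf1, chr10:87866551-87866578, minus strand: cttgggaactGGAGATAAgaatgactta
Fshr, chr17:89177996-89178023, plus strand: ttttcattgcTATGATAAaatgccatga
Zfpm1, chr8:122142389-122142416, plus strand: ctgccagcccCCAGATAAgcacagagac
Zfpm2, chr15:40713134-40713161, minus strand: ttcatcttaaGCAGATAAggaaagggcc

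The GATA/no-ERE sites showed ERβ signal well above both inputs in each replicate, which the rule required in 2 of 3. Their median signal was 3.55, 4.37 and 4.08 in ChIP replicates 1, 2 and 3, against 0.68 and 0.54 in Inputs 1 and 2. The median fold over input was 5.48, 6.89 and 6.45 (mean 6.27 ± 0.72, SD, n = 3), and at all 327 sites every ChIP value exceeded both inputs. Input signal was itself 1.84 and 1.48 times the genome mean at these sites. The mean fold of single sites ran from 3.17 to 30.9, with a median of 6.29; 101 sites reached 8-fold and 19 reached 16-fold. ChIP replicate 1 was the lowest of the 3 at 190 sites (58.1%).

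**Figure D1:**
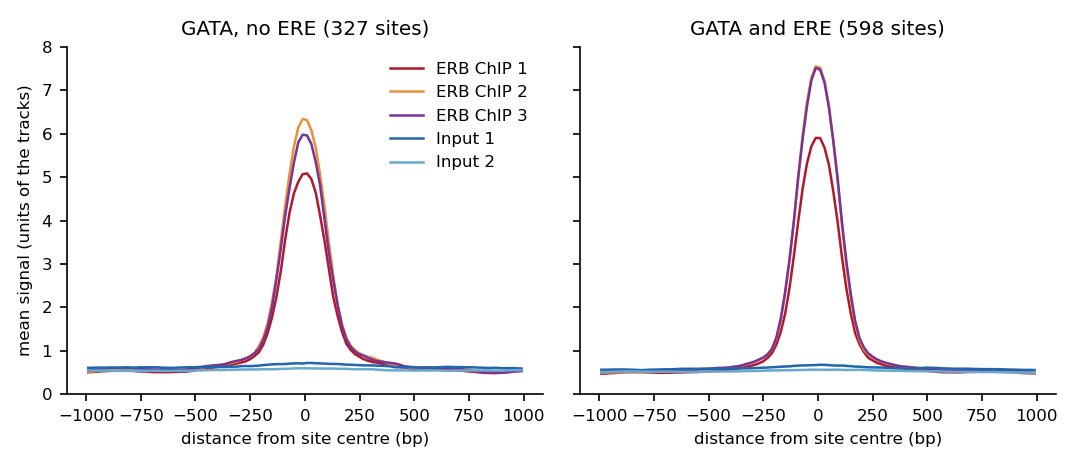
Mean signal in 20-bp steps (vertical axis, units of the tracks) by distance from the site centre (horizontal axis, bp) in 3 ERB ChIP libraries and 2 inputs, at sites with GATA match and no ERE (left) and with both elements (right). The ChIP lines peak at the centre, at 5.08, 6.33 and 5.97 in replicates 1, 2 and 3 on the left, where the inputs are at 0.711 and 0.595.

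Averaged around the site centre, signal fell to 0.514, 0.540 and 0.548 in the 3 ChIP libraries at 800 to 1000 bp, close to the inputs at the same distance (0.605 and 0.544). The peak was 240, 240 and 220 bp wide midway between flank and centre. At sites with both GATA match and ERE it was 200 bp wide in each replicate, and its centre reached 5.90, 7.54 and 7.50. These profiles follow from the values that chose the sites and are given without a test.

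Whether the sites would hold up in a library that had not called them was asked by calling sites in 2 ChIP replicates and reading the fold in the third. The fold was taken over the same 2 inputs that took part in the calls, so the ChIP signal alone was held out. Of GATA/no-ERE sites called in the other two, 223 of 284 (78.5%) exceeded 4-fold in held-out replicate 1, 219 of 233 (94.0%) in replicate 2 and 210 of 242 (86.8%) in replicate 3. Over sites of every class, the shares were 77.5%, 94.8% and 91%, so the GATA/no-ERE sites recurred about as often as sites in general. In the set of 327, 218 sites (66.7%) were called in all 3 replicates, against 68.7% of all 4253 sites.

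The median held-out fold of the GATA/no-ERE sites was 5.61, 8.09 and 6.93 in replicates 1, 2 and 3 (6.88 ± 1.24, SD, n = 3). It lay close to that of sites with neither element, at 5.40, 7.45 and 6.80, with a difference in log2 of 0.05, 0.12 and 0.03 (mean 0.07 ± 0.05, SD, n = 3; exact sign-flip test over the 3 replicates, two-sided, p = 0.25). Sites with both GATA match and ERE were higher in each held-out replicate, at 6.81, 9.18 and 9.06, and the GATA/no-ERE sites differed from them by -0.28, -0.18 and -0.39 in log2 (mean -0.28 ± 0.10, SD, n = 3; exact sign-flip test, p = 0.25). Sites with an ERE and no GATA match had 6.04, 8.69 and 8.45, with a difference in log2 of -0.11, -0.10 and -0.29 (exact sign-flip test, p = 0.25). With 3 replicates the smallest p that this test allows is 0.25, which is also the value after adjustment over the 3 comparisons, so none can pass 0.05. The difference from sites with neither element changed sign without Input 2 (-0.0052) and with signal not divided by input (-0.0013).

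**Figure D2:**
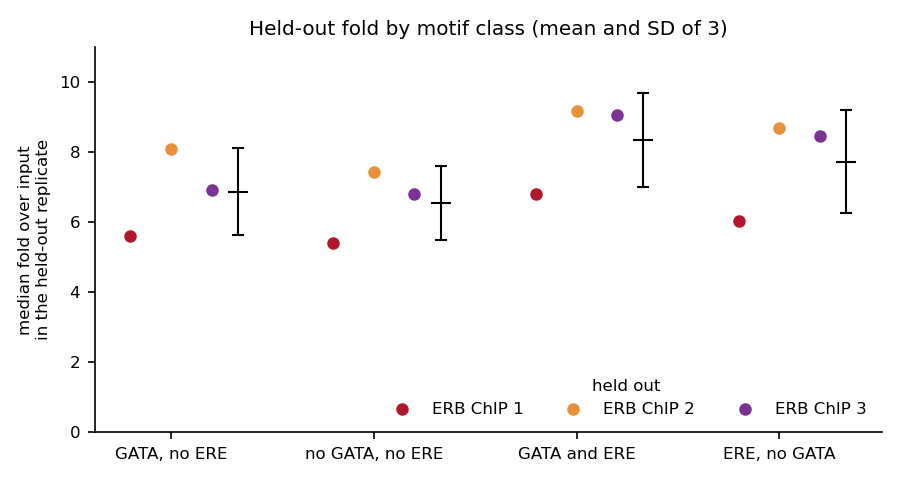
Median fold over input in the ChIP replicate left out of site calling (vertical axis) for 4 classes of sites by GATA match and ERE (horizontal axis), with 1 point per held-out replicate and the mean and SD of the 3 beside them. GATA/no-ERE sites average 6.88 and sites with both elements 8.35.

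The names of the tracks set ChIP replicate 1 beside Input 1 and ChIP replicates 2 and 3 beside Input 2, and the comparison was repeated over that input alone. The difference from sites with both elements was then -0.26 in ChIP replicate 1 and -0.27 on average in replicates 2 and 3. The difference from sites with neither element was 0.02 and 0.08.

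The GATA match itself was more frequent at ERβ sites than in the genome, a description given without a test. Of 1309 sites without ERE, which were not selected for GATA, 327 (25%) held a match, and the share was 25.4%, 24.9% and 25.4% among those called in ChIP replicates 1, 2 and 3. Of sites with ERE, 20.3% held one. Over all 200-bp tiles of the genome without ERE the share was 16.6%, and over tiles with input signal and a GC content between the quartiles of the GATA/no-ERE sites (45.5% and 52%) it was 10.5%. Around the sites without ERE, matches stood at 1.64 per kb within 50 bp of the centre, 1.32 per kb at 50 to 100 bp and 0.747 per kb at 200 to 500 bp, a ratio of 2.20 between the first and the last. Around sites with ERE the same ratio was 1.73. The ratio for the half-site GGTCA, measured in the same way, was 4.22 at sites without ERE and 6.42 at sites with ERE.

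**Figure D3:**
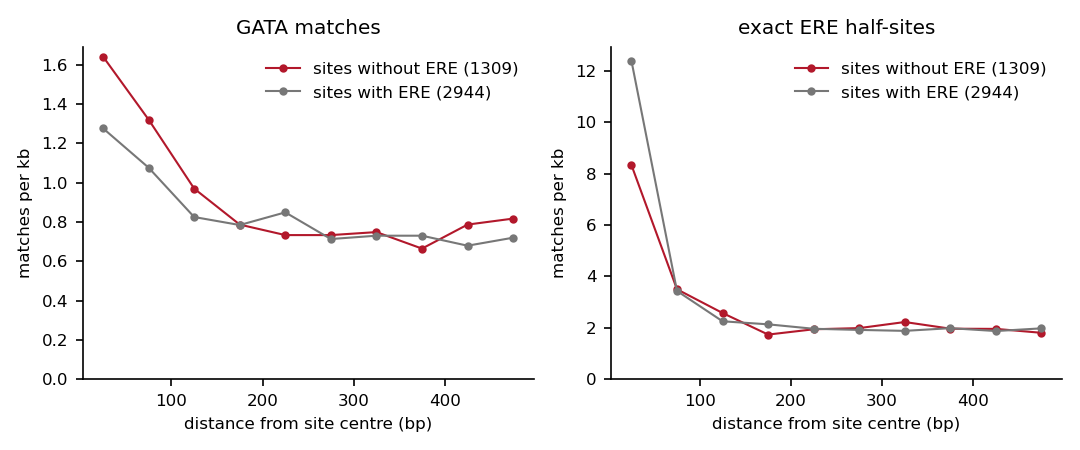
Matches per kb (vertical axis) by distance from the site centre in 50-bp steps (horizontal axis, bp) for the GATA consensus (left) and the exact ERE half-site (right), at 1309 sites without ERE and 2944 sites with ERE. Both motifs are densest at the centre and level off beyond 200 bp; the half-site rises from 1.98 to 8.34 per kb at sites without ERE.

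Within the 200 bp, the GATA match was spread and the half-site was central. The 327 sites held 382 GATA matches, of which 29.1% lay within 25 bp of the centre, where even placement would give 26.4%. The median distance was 43 bp, and 108 sites (33%) had a match within 25 bp. At sites with both elements, 25.7% of GATA matches lay within 25 bp. Exact half-sites, in contrast, lay within 25 bp of the centre in 44.2% of 378 matches, where even placement would give 25.5%, at a median of 28.5 bp. By nearness of the GATA match to the centre, the folds were much alike on the values that called the sites. All sites passed the same limits, so near medians follow in part from the rule. The median fold in replicates 1, 2 and 3 was 5.77, 7.22 and 6.65 at the 108 sites with a match within 25 bp, and 5.44, 6.73 and 6.67 at the 96 sites whose nearest match lay over 60 bp away.

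Most of the sites carried 1 GATA match: 280 had 1, 40 had 2, 6 had 3 and 1 had 4. The 47 sites with 2 or more had median folds of 5.30, 6.45 and 6.01 in replicates 1, 2 and 3. Sites with 1 match had 5.52, 7.06 and 6.57. These are the values that called the sites, and no test was made. Of the 47, 26 (55.3%) were called in all 3 replicates, against 192 of the 280 with 1 match (68.6%) and 68.7% of all sites. Neighbouring matches were on the same strand in 27 of 55 pairs and on opposite strands in 28, at a median distance of 59 bp. The base before GATAA was A in 57.3% of the 382 matches and in 58.7% of 673 matches at sites with both elements. Across the genome it was A in 48.4% of matches, a share not matched for GC content. The site with 4 matches lay in an intron of Fam222a and reached 4.63, 6.87 and 3.86 in ChIP replicates 1, 2 and 3, with inputs at 0.84 and 0.57. It is shown as the densest case, with the matches on both strands in capitals (TTATC is GATAA on the other strand).
Fam222a, chr5:114591191-114591390, plus strand: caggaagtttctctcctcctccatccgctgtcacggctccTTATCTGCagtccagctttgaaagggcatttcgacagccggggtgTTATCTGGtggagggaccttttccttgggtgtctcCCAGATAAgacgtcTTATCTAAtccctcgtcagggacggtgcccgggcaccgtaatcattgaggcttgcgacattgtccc

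Although the rule removed sites with an ERE, it did not remove the half-site. An exact GGTCA was present at 246 of the 327 sites (75.2%), at 71.8% of sites with neither element, and in 24.2% of genome tiles with a GATA match and no ERE. The best ERE-like element had 3 mismatches at 273 sites (83.5%), 4 at 53 and 5 at 1, and lay a median of 15.5 bp from the centre where the match nearest the centre was taken. In 178 sites (54.4%) this element had 1 mismatch in its better arm and 2 in the other, and in 95 (29.1%) it had a perfect half-site with 3 mismatches in the other arm. At 22 sites both arms had 2. The 81 sites without an exact half-site had median folds of 5.43, 6.68 and 6.36 in replicates 1, 2 and 3. Those with one had 5.58, 7.05 and 6.46. All were called on these values at the same limits, so near medians follow in part from the rule. The best ERE-like elements of 4 members are shown on the plus strand with the fixed bases that match the ERE in capitals, to let the degree of departure from the ERE be seen.
Sulf2, chr2:166123125-166123137: tGTCAgaggaACC
Adgrg1, chr8:94987699-94987711: aGTCggctTGcCC
Esr2, chr12:76184490-76184502: aGgCgggaTGACC
Zfpm2, chr15:40713180-40713192: GGTCAgaacaAtC

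Other motifs were counted in the same windows on both strands. The NR5A consensus (YCAAGGTCA, Y is C or T), read by steroidogenic factor 1 and LRH-1 and containing the half-site, was at 19 sites (5.81%), against 8.76% of sites with neither element and 0.503% of genome tiles with a GATA match and no ERE. The steroid receptor palindrome of glucocorticoid, progesterone and androgen receptors (GRE, with up to 2 mismatches) was at 27.8% of the sites, 29.2% of sites with neither element and 8.25% of those tiles. Matches to it lay within 25 bp of the centre in 44.1% of cases, where even placement would give 26.9%. The share was much the same in the other classes, at 43.0% with neither element, 45.6% with both and 46.3% with ERE alone. This palindrome shares letters with the ERE. The FOXO element TGTTTAC was at 6.42%, against 5.80% of sites with neither element and 3.13% of genome tiles with a GATA match and no ERE. In the same order, the AP-1 element TGASTCA (S is C or G) was at 4.89% (6.92% and 2.82%). The RUNX element TGYGGT was at 11% (18.1% and 13%). The box GGGCGG of SP/KLF factors was at 5.81% (12% and 1.10%). The TEAD element GGAATG was at 13.1% (15.6% and 9.87%), and TTRCNNAA of CEBP factors (R is A or G) was at 14.1% (13.4% and 19.8%). These tiles were not matched for GC content. Tiles with input signal and a GC content between the quartiles of the GATA/no-ERE sites, whatever their GATA or ERE content, gave other shares. There the half-site was at 32.2%, NR5A at 0.995%, GRE at 11.7%, FOXO at 2.22% and AP-1 at 3.75%. RUNX was at 16.8%, SP/KLF at 2.54%, TEAD at 12.3% and CEBP at 12.5%. The cyclic AMP response element was at none of the 327 sites and the E-box CACGTG at 1. At 46 sites (14.1%) none of the half-site, GRE, NR5A, AP-1, FOXO and RUNX elements was found. A match is a match of letters, and no factor other than ERβ was measured.

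**Figure D4:**
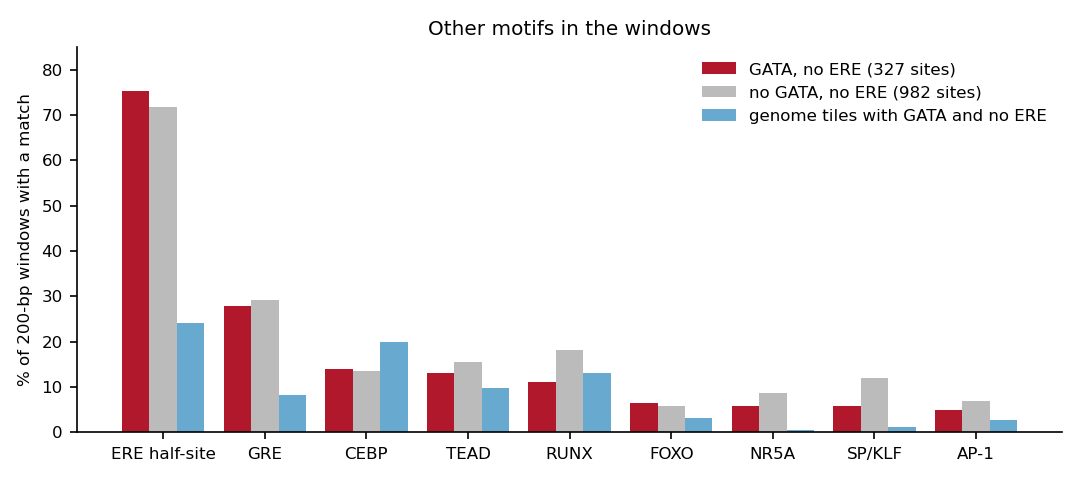
Share of 200-bp windows with a motif match (vertical axis, %) for 9 motifs, at 327 sites with GATA match and no ERE, 982 sites with neither element and the genome tiles with GATA match and no ERE. The half-site stands at 75.2% of the members and 24.2% of the tiles, while CEBP and RUNX matches are more frequent in these tiles than in the members. The tiles are not matched for GC content. In tiles with input signal and a GC content between the quartiles of the members, CEBP stands at 12.5%, below the members, and RUNX at 16.8%.

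Some of these sites were copies of the same sequence. When windows that share at least 15 words of 12 bases were joined, 29 of the 327 sites (8.87%) fell into 5 families, against 4.89% of sites with neither element, 10% of sites with both and 4.56% of sites with ERE alone. These families were looked for after the sequences of named sites had been seen. According to the methods of the study, uniquely mapped reads were used, which bears on how much signal a copy can show.

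The family with the highest signal had 10 members, 2 of them (in introns of Slc5a4b and Fam81a) among the 4 sites with the highest fold of all. Its signal in ChIP replicate 1 ran from 1.75 to 15.4 (median 4.82), in replicate 2 from 2.19 to 19.9 (median 5.52) and in replicate 3 from 1.27 to 18.9 (median 5.69). The mean fold ran from 5.42 to 29.8, with a median of 9.81. Of the 10 members, 8 were called in all 3 replicates, against 66.7% of the 327 sites. A median of 6.5% of the window was marked as repeat in the RefSeq sequence. To let the copies be compared, 6 are given on the strand of the GATA match, with GATA matches and exact half-sites in capitals, in order of falling mean fold. The copy near Nkain2 held 3 GATA matches in its 200-bp window, of which 2 stand side by side in the stretch given.
Slc5a4b, chr10:76092329-76092408, minus strand: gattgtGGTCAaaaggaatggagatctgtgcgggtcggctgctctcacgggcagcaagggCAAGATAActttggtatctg
Fam81a, chr9:70108357-70108436, plus strand: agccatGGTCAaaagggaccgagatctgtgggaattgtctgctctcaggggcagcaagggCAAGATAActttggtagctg
Plcl2, chr17:50724529-50724608, plus strand: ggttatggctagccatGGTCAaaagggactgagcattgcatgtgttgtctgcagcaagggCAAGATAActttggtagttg
Klrb1b, chr6:128850866-128850945, plus strand: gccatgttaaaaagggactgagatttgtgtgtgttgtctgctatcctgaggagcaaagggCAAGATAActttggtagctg
Colgalt2, chr1:152395235-152395314, plus strand: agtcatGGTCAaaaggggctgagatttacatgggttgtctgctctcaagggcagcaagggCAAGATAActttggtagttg
Nkain2, chr10:32497646-32497725, minus strand: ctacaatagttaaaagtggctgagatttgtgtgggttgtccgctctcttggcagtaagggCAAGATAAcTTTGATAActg
Slc5a4b encodes a sodium-glucose cotransporter, and the genes are named only as the nearest protein-coding ones. The genome held 140 copies by the same rule of shared words, of which 12 (8.57%) overlapped an ERβ site of any class. Over all copies the median fold was 0.904, 0.947 and 0.979 in replicates 1, 2 and 3, near the input level. Of the 50 copies with both a half-site and a GATA match, 7 (14%) were at a site, of 31 with a half-site alone 2 (6.45%), of 30 with a GATA match alone 3 (10%), and of 29 with neither 0. The family members among these copies were chosen for being called and for holding a GATA match. The shares of copies at a site therefore follow in part from the rule, and the groups were not compared by a test.

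The largest family had 11 members, in sequence with a median of 51.5% marked as repeat. Its mean folds ran from 4.20 to 9.73 with a median of 6.29. Of the 11 members, 7 were called in all 3 replicates, against 66.7% of the 327 sites. At 10 of the 11, 2 half-sites stood in tandem with no base between them (GGTCAGGTCA). From this family 4 copies are given on the strand of the GATA match, with that match and the half-sites in capitals.
Hpgd, chr8:56266757-56266876, minus strand: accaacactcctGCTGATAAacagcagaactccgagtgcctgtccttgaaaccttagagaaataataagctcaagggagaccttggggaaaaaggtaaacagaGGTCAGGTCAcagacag
Cntnap5a, chr1:115512607-115512726, minus strand: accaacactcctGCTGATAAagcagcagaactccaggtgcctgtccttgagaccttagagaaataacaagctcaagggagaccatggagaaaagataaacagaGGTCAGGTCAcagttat
Lrp1b, chr2:41028530-41028649, plus strand: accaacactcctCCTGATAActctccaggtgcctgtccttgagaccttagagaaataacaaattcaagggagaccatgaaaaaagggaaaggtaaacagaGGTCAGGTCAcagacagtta
Peli1, chr11:21163645-21163764, minus strand: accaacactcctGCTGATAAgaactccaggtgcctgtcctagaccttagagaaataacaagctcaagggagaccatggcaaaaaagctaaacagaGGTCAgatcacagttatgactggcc
The copy near Peli1 had the lowest mean fold of the family (4.20), lacked the tandem, and had its single half-site outside its 200-bp window. The copy near Hpgd, an enzyme of prostaglandin breakdown, had the highest (9.73), with 4.15, 7.04 and 4.64 in ChIP replicates 1, 2 and 3 against 0.54 in both inputs. Of 311 copies in the genome, 19 (6.11%) overlapped a site of any class.

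The third family had 4 members with mean folds from 4.73 to 4.97, and of its 48 copies in the genome 5 (10.4%) overlapped a site. In the 2 copies shown, the GATA match stands in a stretch that is nearly the same in both.
Zfp280b, chr10:76012343-76012420, minus strand: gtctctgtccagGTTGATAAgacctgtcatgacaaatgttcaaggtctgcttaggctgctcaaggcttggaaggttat
Zfp809, chr9:22214106-22214183, plus strand: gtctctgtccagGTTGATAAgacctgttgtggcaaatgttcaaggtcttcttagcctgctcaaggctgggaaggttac

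The tandem half-site was then looked for at all sites. It was present at 14 of the 327 GATA/no-ERE sites (4.28%), 10 of them in the largest family and 4 (of 298, 1.34%) outside any family, and at 1.27% of all 4253 sites, against 0.0341% of genome tiles. The 4 outside the families had median folds of 15.2, 18 and 18.9 in ChIP replicates 1, 2 and 3. All 4 were called in all 3 replicates, against 66.7% of the 327 sites. Over the 54 tandem sites of every class, the medians were lower, at 6.7, 8.27 and 8.57. The 9 with neither element had 6.18, 6.89 and 7.9, and the 8 with both had 6.01, 6.92 and 6.9. The 23 with ERE alone had 8.18, 9.76 and 10.8. These are the values that called the sites, and no test was made. The 4 sites lay near Gja1 and Nr5a2 and, outside the rule for named sites and chosen after their values were seen, 16.9 kb upstream of Serinc5 and in an intron of Pmm2. The windows near Gja1, which encodes the gap junction protein connexin 43 of granulosa cells, and near Nr5a2, which encodes LRH-1, are shown with GATA matches and half-sites in capitals.
Gja1, chr10:56489501-56489700, plus strand: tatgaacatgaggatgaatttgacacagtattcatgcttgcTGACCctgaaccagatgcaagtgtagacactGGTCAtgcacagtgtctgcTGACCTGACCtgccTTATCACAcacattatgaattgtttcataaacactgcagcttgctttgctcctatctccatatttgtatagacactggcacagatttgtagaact
Nr5a2, chr1:137177241-137177440, plus strand: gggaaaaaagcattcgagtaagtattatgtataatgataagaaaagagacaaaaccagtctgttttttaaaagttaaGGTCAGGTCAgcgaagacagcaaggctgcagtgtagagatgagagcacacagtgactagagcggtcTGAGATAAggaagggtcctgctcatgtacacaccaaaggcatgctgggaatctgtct
The Gja1 window lay 111 kb downstream of the start of that gene in intergenic sequence and held 4 half-sites. ChIP signal there was 10.2, 14.7 and 19 in replicates 1, 2 and 3, with inputs at 0.83 and 0.53. Another GATA/no-ERE site, 107 kb downstream, had a mean fold of 6.84. The Nr5a2 window lay 217 kb upstream of that gene. ChIP signal there was 8.49, 7.61 and 8.32, with both inputs at 0.45 (mean fold 18.1 ± 1.05, SD, n = 3), and the replicates lay close together.

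The 10 sites with the highest mean fold among those called in all 3 replicates were mostly in introns or intergenic. Highest was an intronic site of Sulf2, which encodes a sulfatase of extracellular heparan sulfate (chr2:166122961-166123160, intron 3 of 21). It reached 24.7, 23.8 and 25.6 in ChIP replicates 1, 2 and 3, with inputs at 0.73 and 0.86 (fold 30.9 ± 1.11, SD, n = 3). The 3 ChIP values were close to each other. That they lay above both inputs follows from the call in all 3 replicates. The window held no exact half-site, and its GATA match was at the edge, 93 bp from the centre.
Sulf2, chr2:166122961-166123160, plus strand, GATA match in capitals: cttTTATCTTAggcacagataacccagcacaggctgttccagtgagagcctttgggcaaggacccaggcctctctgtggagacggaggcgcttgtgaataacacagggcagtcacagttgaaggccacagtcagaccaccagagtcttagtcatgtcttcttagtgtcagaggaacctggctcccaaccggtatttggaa

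The site in intron 1 of 13 of Adgrg1, an adhesion receptor coupled to G proteins (chr8:94987601-94987800), had ChIP values of 19, 26.3 and 25.2, with inputs at 0.74 and 1.06. The site in intron 3 of 29 of Dgkd, a diacylglycerol kinase (chr1:87892681-87892880), had 14.2, 13.4 and 9.92, with inputs at 0.70 and 0.55. It held an NR5A match as well as the GATA match, which was 4 bp from the centre. An intergenic site 35.5 kb upstream of Alox5ap, a protein needed for leukotriene synthesis, reached 21.9, 25.7 and 36.9, with inputs at 1.00 and 1.15 and a GC content of 66.5%. The nearest start of any transcript there, of 2310047D07Rik, was 2.04 kb away. The site 38.1 kb upstream of Sgk1, a kinase induced by steroids, lay in an intron of Platr6, 0.72 kb from the start of that gene. It had 10.7, 12.1 and 15.8, and an intergenic site near Gapvd1 had 7.92, 11.2 and 14.8. At these 5 sites no ChIP value overlapped an input, which follows from the rule, as all were called in all 3 replicates.

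Not all sites of high mean fold were alike in the 3 replicates. At a site in repeat sequence (79.5% of its bases) in the promoter of the gene model Gm45063 (chr6:132463681-132463880), ChIP replicate 1 gave 2.06, replicate 2 gave 20.4 and replicate 3 gave 12.1, with inputs at 0.17 and 0.64, so that the fold of 28.5 had an SD of 22.7. At 3 of the 327 sites the highest fold was over 5 times the lowest, with ChIP replicate 1 lowest in each, and these sites had 79.5%, 100% and 77% of their bases in repeats. The median ratio of highest to lowest fold over all members was 1.47.

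**Figure D5:**
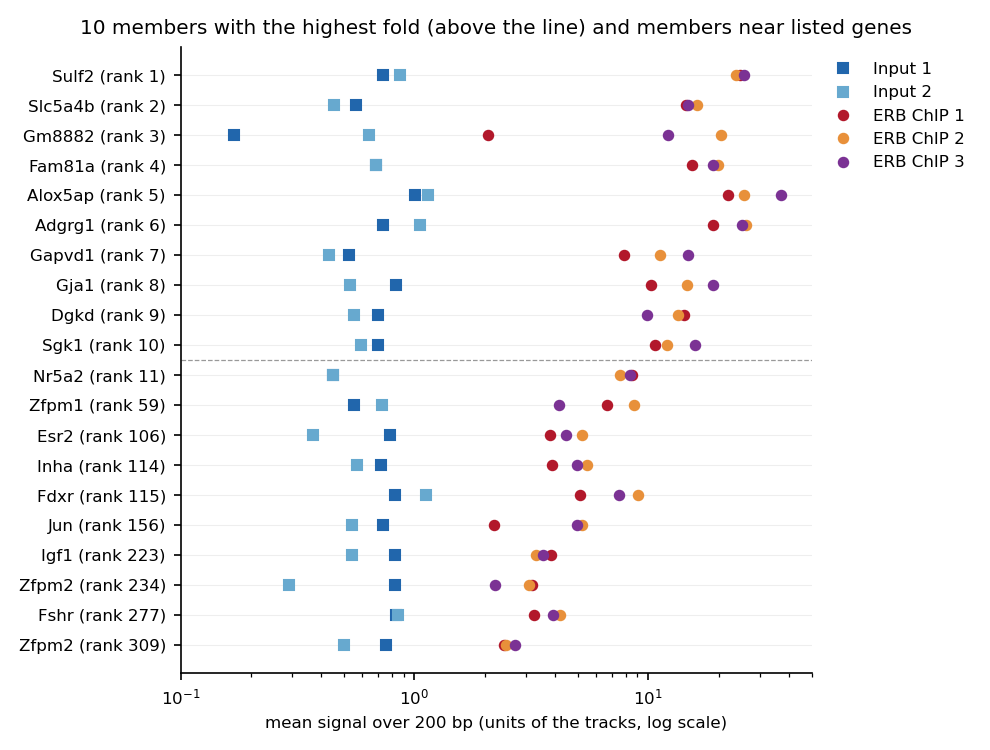
Mean signal over 200 bp (horizontal axis, units of the tracks, log scale) in 3 ERB ChIP libraries (circles) and 2 inputs (squares) at the 10 sites with the highest mean fold (above the dashed line) and at members nearest to a listed gene (below it), named by the nearest protein-coding gene and rank by fold. The ChIP values exceed the inputs in every row, which the rule required in the libraries that called the site. At the Gm45063 promoter, named there by the coding gene Gm8882, replicate 1 stands at 2.06 against 20.4 in replicate 2.

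Genes of ovarian function were looked up among the protein-coding genes nearest to a GATA/no-ERE site. Of all 21646 protein-coding genes, 306 (1.41%) were nearest to such a site and 13.5% to a site of any class, which is the level to set beside each list. Of 8 GATA factors and cofactors, 2 were, with 3 sites: Zfpm1 and Zfpm2, which encode FOG1 and FOG2. No gene for a GATA factor itself was nearest to one. Of the same 8 genes, 6 had an ERβ site of some class. The Zfpm1 site lay 140 kb upstream, in an intron of another gene, Gm20388. The nearest start of any transcript there, of Zfp469, was 127 kb away. Signal was 6.66, 8.73 and 4.14 in the 3 ChIP libraries against inputs of 0.55 and 0.72. Both Zfpm2 sites were in its introns, 48.2 and 99.6 kb from the start. The first had 3.2, 3.09 and 2.22 in the 3 ChIP libraries, with inputs at 0.83 and 0.29. The second had 2.42, 2.47 and 2.69, with inputs at 0.76 and 0.50, and was called in 2 replicates. It was near the lower limit, with folds of 3.86, 3.93 and 4.28 at its centre.

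Of 9 gonadotropin receptor and inhibin genes, 2 had a GATA/no-ERE site and 7 a site of any class. The Inha site covered the start of the gene for inhibin alpha, which lay 14 bp from its centre. It reached 3.88, 5.50 and 4.97 in ChIP replicates 1, 2 and 3, with inputs at 0.72 and 0.57 (fold 7.43 ± 1.29, SD, n = 3), and it held a GATA match and no exact half-site. The site in an intron of Fshr, the receptor for follicle-stimulating hormone, lay 22.7 kb from the start and was near the lower limit, with 3.24, 4.19 and 3.93 against inputs of 0.83 and 0.85, and was called in 2 replicates.

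Of 14 steroid synthesis genes, 1 had such a site. It lay 4.04 kb into Fdxr, which encodes the ferredoxin reductase that feeds electrons to mitochondrial steroid hydroxylases, with signal of 5.09, 9.02 and 7.50 against inputs of 0.83 and 1.12. Of 18 gonad transcription factor genes, Nr5a2 alone was nearest to one, while 11 had a site of any class. Of 15 estrogen response genes, 2 had one. The site 7.23 kb upstream of Esr2, the gene of ERβ, had 3.81, 5.24 and 4.45 with inputs at 0.79 and 0.37 (fold 7.79 ± 1.24, SD, n = 3). The site in an intron of Igf1, 5.32 kb from the start, held 2 GATA matches and had 3.83, 3.32 and 3.57 with inputs at 0.83 and 0.54. Of 9 AP-1 and early response genes, Jun had a site 105 kb upstream, with 2.19, 5.20 and 4.98, called in 2 replicates. At each of these sites the ChIP values lay above the inputs, which the rule required in the libraries that called it. No test was made of the lists.

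By marker lists, 3 of 8 granulosa cell genes (Fshr, Inha and Nr5a2) were nearest to a GATA/no-ERE site, and 7 of 8 to a site of any class. Beside the 1.41% of all protein-coding genes, lists this short cannot set cell types apart by a count of 0. None of the 7 theca and stroma, 5 luteal, 7 endothelial, 6 erythroid and blood, and 5 oocyte markers was nearest to one; of these lists, theca and stroma had 1 gene with a site of any class, luteal 2, endothelial 2, and the other two 0. The nearest gene is an assignment by distance, and expression was not measured in these libraries.

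The sites lay mostly away from promoters. Of the 327, 157 (48.0%) were in introns, 123 (37.6%) were intergenic, 12 lay at transcript ends, and 19 (5.81%) were in promoters (from 1000 bp upstream to 100 bp downstream of a transcript start). The promoter share was 2.14% when protein-coding transcripts alone were counted. Over all transcripts it was 13.4% at sites with neither element, 8.70% at sites with both and 9.12% at sites with ERE alone. Among sites called in ChIP replicates 1, 2 and 3 it was 6.11%, 6.07% and 6.40% for GATA/no-ERE sites and 12.6%, 13.7% and 14.1% for sites with neither element, so the order of these classes was the same in each library. The libraries share most of their sites, and this is a description. GC content differed alongside: its median was 49% at GATA/no-ERE sites and 52.5% at sites with neither element, and its part in the promoter share was not tested.

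The median distance to a protein-coding start was 27.2 kb, and 115 sites (35.2%) lay over 50 kb from one, against 32.4% of all sites. Of the intronic sites, 49 (31.2%) were in the first intron. In 22 sites (6.73%) at least 50% of the bases were marked as repeat, against 5.71% of all sites. Their median folds were 5.75, 7.34 and 6.33 in ChIP replicates 1, 2 and 3, and the others had 5.46, 6.81 and 6.48. Both groups were called on these values.

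At the limits of the rule, the members with the lowest second-highest fold at the site centre had values of 3.78, 3.80 and 3.82, since the merged centre can differ from the summit of a library. A further 200 sites with a GATA match and no ERE were called in 1 replicate and stayed outside; their median second-highest fold was 3.23, against 6.26 inside, and the highest among them were 7.83, 5.89 and 5.65, at sites that did not meet every criterion in a second library. By ERE, the 336 sites with a GATA match whose best ERE had 2 mismatches, just outside, had a median mean fold of 7.05, and the 273 with 3 mismatches, just inside, had 6.33. The member with 5 mismatches, 22.2 kb upstream of Tsku, had 16.4. The weakest members by mean fold lay near Rab17 (3.17), Sipa1l1 (3.42) and Vdac3 (3.61), each called in 2 replicates.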

How the data were processed

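ChIP-seq of mouse ovary was analysed in 5 libraries, 3 ERB ChIP replicates and 2 inputs, grouped by their sample titles. According to the methods and the submitters' processing notes, the authors mapped reads to mm10 with STAR, kept uniquely mapped reads and used HOMER. The deposited values are signal (coverage) per segment, scaled by the authors to a common total per library; libraries were not pooled. Totals of signal times length were 928 to 948 M, and the averaged tracks hold no tag counts per site, so no counting intervals were computed.

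Signal was averaged in 200-bp windows at steps of 10 bp on autosomes and X, and sites were called as stated above, with input floored at its genome mean over bases other than N. Fold is the ChIP signal over the mean of both inputs. Motifs were searched in GRCm38.p6, and sites were annotated with GENCODE vM21 in the order promoter, transcript end, coding exon, UTR, other exon, intron, intergenic. Class medians in held-out replicates were compared by exact sign-flip tests over 3 replicates. The members, gene lists and motifs were chosen with earlier results of these data known. Named sites were the 10 called in all 3 replicates with the highest mean fold, those nearest to a listed gene, the 3 with the lowest mean fold and up to 5 with the most GATA matches. The caller and the motif search were tested on simulated data. Scripts ran in Python 3.11.15 with numpy 2.4.6, pandas 2.3.3 and scipy 1.17.1. Alternatives covered height, fold, motif and ERE limits, window size, input choice and floor, and each library left out. According to the methods the ChIP replicates were biological replicates, each from pooled animals, so p-values measure the spread between pools.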

Additional observations from a re-analysis of the deposited data

How the results depend on the processing

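Shares were taken as moved when they left the 95% Wilson interval of the reported value. The difference in median log2 held-out fold between GATA/no-ERE sites and sites with neither element was 0.07 as reported, but -0.0052 without Input 2 and -0.0013 with signal not divided by input, so it gives no direction; the cause was not tested. The number of sites was 104 at 8-fold over input, 577 with the shorter consensus WGATAR and 54 with at least 4 ERE mismatches. At 8-fold the median held-out fold was 12.2 and the promoter share 9.62%. With at least 4 ERE mismatches the shares in promoters and with a FOXO match were both 3.70%, and over protein-coding transcripts alone the promoter share was 2.14%. In windows of 400 bp, which hold more bases by construction, 18.6% of GATA matches lay within 25 bp of the centre, half-sites were at 83% and RUNX matches at 25.7% of sites.

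With each library left out in turn, the number of sites ran from 233 to 365 and the median held-out fold from 5.59, without ChIP replicate 2, to 7.19; the difference from sites with neither element ran from -0.0052 to 0.14. The difference from sites with both elements kept its direction in all 13 alternatives, from -0.37 to -0.14. With a replicate block, each ChIP over the input of its number, the held-out fold was 7.05 and the 2 differences were 0.08 and -0.22; the samples share a number only. An alternative chosen after seeing the data left out sites that share sequence, and of the remaining 298 sites 74.2% held a half-site and 6.04% lay in promoters. Depth cannot be read from the tracks, so the spread between 3 ChIP libraries sets the precision.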

Other observations

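The surroundings of the GATA/no-ERE sites were described by the distance to other ERβ sites. The median distance to the next site of any class was 48.4 kb, against 68.9 kb at sites with neither element and 81.5 kb at sites with both, and 62 sites (19%) had another site within 10 kb, against 17.3% and 14.9% in the same order. A site with ERE lay within 10 kb of 12.5% of GATA/no-ERE sites and 11.6% of sites with neither element, shares that lie close together. Of the 306 nearest protein-coding genes, 141 (46.1%) were also nearest to a site with ERE, against 339 of 875 (38.7%) for sites with neither element. Of all 21646 protein-coding genes, 10.4% were nearest to a site with ERE. These are descriptions without a test.

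Of the genes, 20 were nearest to 2 or more GATA/no-ERE sites and 1, St3gal5, to 3; it was singled out after its values were seen. St3gal5 encodes the sialyltransferase that makes the ganglioside GM3. The site 1.14 kb upstream of its start reached 4.19, 3.51 and 4.08 in ChIP replicates 1, 2 and 3, with inputs at 0.77 and 0.55. The site 47.1 kb downstream reached 4.23, 5.14 and 4.54, and the one 67.8 kb upstream 2.35, 3.37 and 3.48. Across the 327 sites, log2 signal correlated between ChIP replicates with Pearson's r of 0.83, 0.77 and 0.85, and between the inputs with 0.43; the sites were called on the same ChIP values, and this is a description.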
